A study of Mus musculus with 12 samples.

Results

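The genes described here are 7 genes used to recognise macrophages that lie outside the microglial network: Mrc1, Cd163, Lyve1, F13a1, Ms4a7, Adgre1 and Lyz2. They were chosen by name, and each matched 1 row of the 57073 gene rows deposited. RNA was sequenced from retina of C57BL/6 mice at postnatal day 17, in 6 libraries labelled normoxic air and 6 labelled 75% oxygen. The second group is the oxygen-induced retinopathy (OIR) model, in which pups breathe high oxygen, lose retinal capillaries and, back in room air, grow abnormal new vessels from a hypoxic retina. All libraries share strain, tissue, age and poly-A capture, and the labels name no transgene or drug. The labels used here do not give the days spent in oxygen, the sex, or whether libraries came from separate animals, so every p-value reflects variation among libraries only, and part of that variation may be technical.

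Macrophages of the central nervous system fall into microglia, which sit within the neural tissue, and border-associated macrophages, which line vessels and membranes. Perivascular macrophages take up debris and plasma proteins through scavenger receptors, and the genes Mrc1, Cd163 and Lyve1 serve to tell them from microglia. Monocytes that enter from blood can become macrophages in injured tissue, and Lyz2 and Adgre1 mark them as well as other myeloid cells. None of these genes belongs to a single cell type in every tissue: Lyve1 is also made by lymphatic endothelium, and F13a1 by platelet precursors.

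Total counts ranged from 17361979 to 21594618 per library. Defining retinal genes were present in every library, with a summed level of 23200 to 26200 CPM (each count divided by its library's scaled total) in normoxic and 25000 to 29000 CPM in OIR libraries. Tissue next to the retina was unevenly present: the summed lens crystallin level was 7.84 to 50.4 CPM in normoxic and 4.63 to 20.2 CPM in OIR libraries, and that of 8 pigment epithelium and choroid genes was 15.9 to 114 and 45.4 to 71.2 CPM. Because the retina was sequenced in bulk, more cells of a type and more RNA per cell cannot be told apart in any value that follows.

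Of the 7 genes, Mrc1, F13a1, Adgre1 and Lyz2 rose in OIR, Lyve1 fell, Cd163 was counted in OIR libraries alone, and Ms4a7 did not separate the groups. Mrc1, Lyve1, F13a1, Adgre1 and Lyz2 passed the expression filter and were tested with edgeR. Across all 18275 tested genes, 31.0% were called, 16.2% higher and 14.8% lower in OIR (adjusted p under 0.05). Mrc1 and F13a1 reached 10 counts in OIR libraries only and so entered the test through the group where they are high, and a count over the tested members therefore says little. The plot of levels by library shows the 7 genes side by side.

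**Figure D1:**
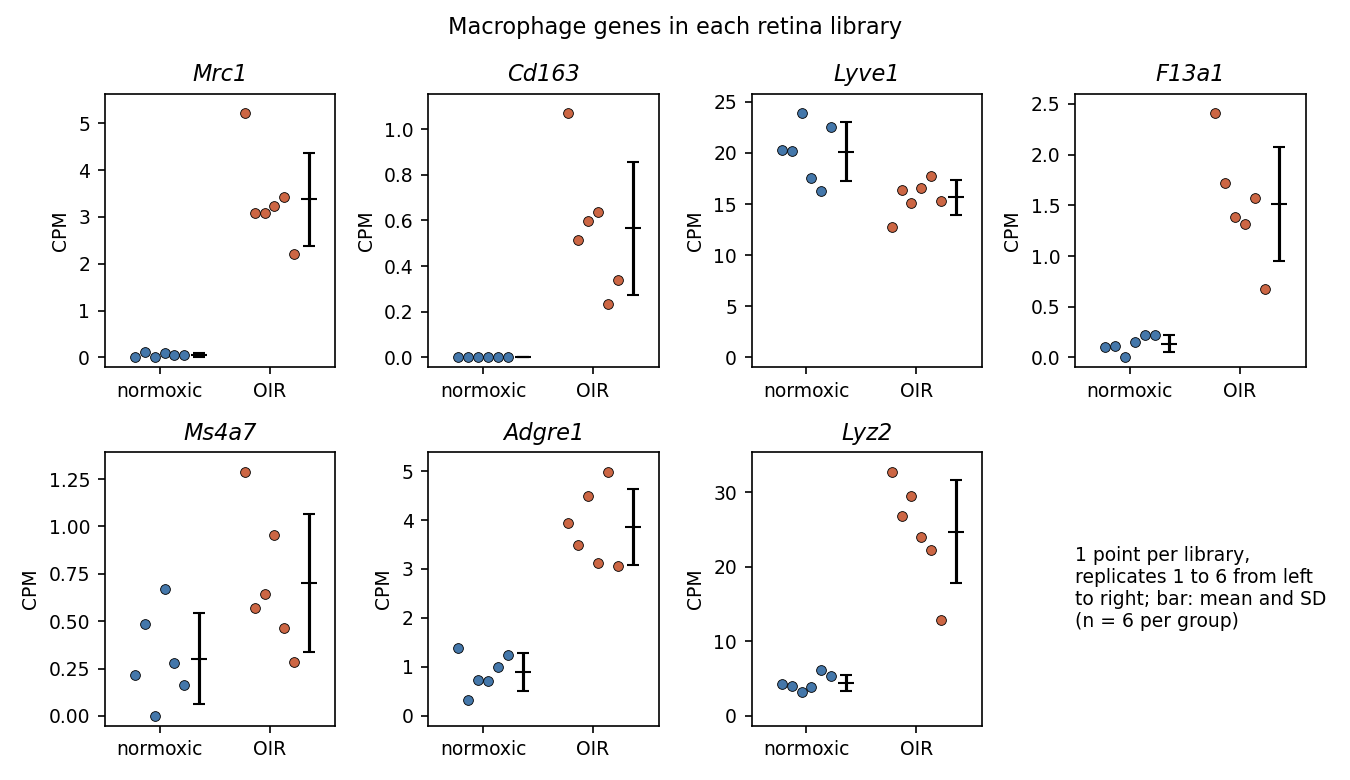
Level (CPM, vertical axis, a separate linear scale per gene) of each macrophage gene in the 6 normoxic (blue) and 6 OIR (orange) libraries, with the mean and SD beside the points. Mrc1, Cd163, F13a1, Adgre1 and Lyz2 lie higher in all 6 OIR libraries, Lyve1 lies mostly lower (16.3 to 23.9 against 12.8 to 17.7 CPM), and Ms4a7 overlaps.

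Mrc1 encodes the mannose receptor, an endocytic receptor for sugars on microbes, hormones and collagen fragments (ENSMUSG00000026712, chromosome 2, 14234203 to 14336868 on the plus strand, build GRCm39). In normoxic libraries 1 to 6 it had 0, 2, 0, 2, 1 and 1 counts. In OIR libraries 1 to 6 it had 93, 54, 67, 61, 59 and 39 counts. Normoxic retina was thus close to the floor of detection, while each OIR library held at least 39 counts, and replicate 1 stood above the rest. The summed counts were 6 and 373, a ratio of 62.0 (95% counting interval 28.2 to 170), with an edgeR adjusted p of 5.6e-09. Non-overlapping groups with OIR higher were found in 9.47% of all tested genes. Counting intervals cover counting error only, and no molecular identifiers are named in the sources used here.

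Cd163 encodes the receptor that clears haemoglobin bound to haptoglobin, and is carried by perivascular macrophages (ENSMUSG00000008845, chromosome 6, 124281615 to 124307486, plus strand). It had 0 counts in all 6 normoxic libraries. OIR libraries 1 to 6 held 19, 9, 13, 12, 4 and 6 counts. Every OIR library therefore held some Cd163 RNA, at 0.232 to 1.07 CPM. Against a floor of 3 counts over the normoxic group, Cd163 was at least 20.9-fold higher in OIR, and the exact 95% lower limit of the ratio, which also covers counting error in the OIR libraries, was 16.5. It stayed under the expression filter, and in a fit of 34120 genes without that filter its edgeR adjusted p was 5.9e-06, where 8.96% of genes were called higher.

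F13a1 encodes the catalytic A subunit of coagulation factor XIII, a transglutaminase that crosslinks fibrin and is made by tissue macrophages (ENSMUSG00000039109, chromosome 13, 37051152 to 37234220, minus strand). Its counts in normoxic libraries 1 to 6 were 2, 2, 0, 3, 4 and 4. In OIR libraries 1 to 6 they were 43, 30, 30, 25, 27 and 12. The groups did not overlap, and the ratio of summed counts was 11.1 (95% counting interval 6.54 to 20.3; edgeR adjusted p = 6.0e-06). The partner subunit gene F13b, which is expressed chiefly in liver, had 1 count in all libraries together. An antisense gene model inside F13a1, Gm30489, had 14 normoxic and 5 OIR counts, and without a stated strand setting its reads cannot be told from those of F13a1.

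The upstream sequences of these 3 genes, nearly silent in normoxic retina and counted in all 6 OIR libraries, are shown from RefSeq on build GRCm38.p6 (the counts use GRCm39). Each runs 5′ to 3′ on the gene's strand over the 250 bases before the annotated start, and capitals mark GAGGAA or its reverse complement TTCCTC, a core bound by the myeloid factor PU.1.
Mrc1, chr2:14229164-14229413, plus strand: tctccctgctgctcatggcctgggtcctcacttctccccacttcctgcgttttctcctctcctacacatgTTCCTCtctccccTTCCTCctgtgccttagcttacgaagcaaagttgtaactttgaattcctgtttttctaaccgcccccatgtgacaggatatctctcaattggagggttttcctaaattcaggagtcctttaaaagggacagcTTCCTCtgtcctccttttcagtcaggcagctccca
Cd163, chr6:124304401-124304650, plus strand: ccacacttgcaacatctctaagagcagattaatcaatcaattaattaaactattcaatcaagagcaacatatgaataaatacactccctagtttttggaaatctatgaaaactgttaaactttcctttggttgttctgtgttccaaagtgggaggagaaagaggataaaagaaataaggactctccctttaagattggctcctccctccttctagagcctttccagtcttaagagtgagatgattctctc
F13a1, chr13:37050245-37050494, minus strand: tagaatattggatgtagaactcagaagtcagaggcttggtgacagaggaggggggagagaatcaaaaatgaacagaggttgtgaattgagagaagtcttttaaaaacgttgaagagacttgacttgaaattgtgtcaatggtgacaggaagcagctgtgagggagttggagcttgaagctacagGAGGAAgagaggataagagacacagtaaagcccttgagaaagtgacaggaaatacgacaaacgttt

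The Mrc1 stretch holds 3 such matches, beginning 180, 167 and 35 bases before the start, and the F13a1 stretch holds 1, at 66 bases. F13a1 has a second annotated start, and the 250 bases before it (chr13:37049214-37049463, minus strand) hold none. Cd163 holds none in this window. Of the 32851 promoters in the table, 23.3% hold at least 1 match on either strand, so a match is common and is a description of letters only. Of the members, 5 had an entry in the table, with 7 annotated starts among them, and 2 of the 7 held the match. Lyve1 and Adgre1 had no entry and were not searched. The other cores searched on both strands were TTGCNNAA (C/EBP, in 9.56% of promoters), TGANTCA (AP-1, 6.75%) and TGCTGA (MAF, 16.1%). They matched in 0, 1 (Ms4a7) and 1 (Lyz2) of the 7 member starts.

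Lyz2 encodes the lysozyme of macrophages and neutrophils, an enzyme that cuts bacterial cell walls (ENSMUSG00000069516, chromosome 10, 117113236 to 117118226, minus strand). Normoxic libraries held 3.20 to 6.10 CPM with a median of 4.12. OIR libraries held 12.9 to 32.8 CPM with a median of 25.4. All OIR libraries lay above all normoxic ones, and OIR replicate 6, at 12.9 CPM, was the lowest of its group. The mean rose from 4.46 ± 1.06 to 24.7 ± 6.93 CPM (SD, n = 6 in each group), a 5.54-fold rise (log2 fold change 2.47 ± 0.19 SE, edgeR adjusted p = 2.7e-08). These levels rest on 493 normoxic and 2762 OIR counts.

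Lyz2 lies beside Lyz1, the lysozyme gene of intestinal Paneth cells, and the near-identity of these genes makes their split of reads uncertain. In the transcripts of build GRCm38 their coding sequences shared 422 of 444 bases, with 22 differing bases and a longest identical run of 118. Of all stretches of 50 bases in the Lyz2 coding sequence, 20.3% also occur in Lyz1. The 60 coding bases that differ most (61 to 120, counted from the start codon) are shown with differing bases in capitals.
Lyz2: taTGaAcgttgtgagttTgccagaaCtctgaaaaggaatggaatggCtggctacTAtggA
Lyz1: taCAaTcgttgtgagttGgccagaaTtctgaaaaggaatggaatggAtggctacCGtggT
Lyz1 had 15 counts in normoxic and 28 in OIR libraries (ratio 1.86, interval 0.961 to 3.75), so the counts assigned to it were few beside those of Lyz2.

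Adgre1 encodes F4/80, an adhesion receptor that marks mouse macrophages and, at a lower level, microglia (ENSMUSG00000004730, chromosome 17, 57665691 to 57790527, plus strand). Its normoxic libraries held 6 to 26 counts with a median of 16, or 0.325 to 1.39 CPM. Its OIR libraries held 54 to 98 counts with a median of 65.5, or 3.06 to 4.99 CPM. The groups did not overlap. The mean rose from 0.905 ± 0.391 to 3.85 ± 0.776 CPM (SD, n = 6 each), 4.23-fold (log2 fold change 2.08 ± 0.26 SE, edgeR adjusted p = 6.7e-06). Of its relatives, Adgre5, the gene of the leukocyte receptor CD97, rose 1.67-fold (edgeR adjusted p = 0.0039), and Adgre4 had 59 normoxic and 60 OIR counts.

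Ms4a7 encodes a membrane-spanning protein whose gene helps to separate border-associated macrophages and monocyte-derived cells from microglia (ENSMUSG00000024672, chromosome 19, 11298403 to 11313510, minus strand). Its counts in normoxic libraries 1 to 6 were 4, 9, 0, 13, 5 and 3. In OIR libraries 1 to 6 they were 23, 10, 14, 18, 8 and 5. The groups overlapped, with normoxic replicate 4 (0.668 CPM) above OIR replicates 2, 3, 5 and 6 (0.283 to 0.643 CPM). The ratio of summed counts was 2.29 (95% counting interval 1.51 to 3.53), but that interval leaves out the spread between libraries, and in the fit without the expression filter the difference did not pass (edgeR adjusted p = 0.12). With replicate numbers 1 to 3 alone it passed (adjusted p = 0.034), and likewise without OIR replicate 6 (adjusted p = 0.0499), while the other alternatives that tested it gave adjusted p-values of 0.0735 to 0.145. Other genes of the same cluster had larger ratios: Ms4a6d had 21 normoxic and 232 OIR counts and rose 10.5-fold (edgeR adjusted p = 8.5e-05).

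Lyve1, a hyaluronan receptor gene of lymphatic endothelium and of vessel-lining macrophages, went the other way (ENSMUSG00000030787, chromosome 7, 110449814 to 110462446, minus strand). Normoxic libraries held 16.3 to 23.9 CPM with a median of 20.2. OIR libraries held 12.8 to 17.7 CPM with a median of 15.8. The groups overlapped, with normoxic replicates 4 and 5 (17.5 and 16.3 CPM) inside the OIR range. Non-overlapping groups with OIR lower were found in 6.60% of tested genes. Its mean fell from 20.1 ± 2.90 to 15.7 ± 1.68 CPM (SD, n = 6 each), by 0.36 ± 0.10 (SE) on the log2 scale, with 0.010 as the edgeR adjusted p. The call was not seen in both sets of replicate numbers: the log2 fold change was -0.54 with numbers 1 to 3 (adjusted p = 0.00058) and -0.18 with numbers 4 to 6 (adjusted p = 0.39), and the difference between these sets was not tested.

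The other markers of lymphatic endothelium did not follow Lyve1 as a group. Of 6, 4 were tested, and Pdpn and Flt4 rose (1.79-fold each, edgeR adjusted p = 4.6e-09 and 4.8e-05) while Prox1 fell by 0.16 on the log2 scale (adjusted p = 0.0045). In retina these genes are not specific: Prox1 is also a gene of horizontal cells and Müller glia, and Pdpn is also expressed by glia. Ccl21a, a chemokine gene of lymphatic vessels, had 4 normoxic and 5 OIR counts. Stab2, another hyaluronan receptor gene, had a log2 fold change of -0.34 and did not pass (adjusted p = 0.27), and Cd44, the main hyaluronan receptor gene of leukocytes and glia, rose 2.83-fold (adjusted p = 8.8e-08).

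Levels were compared between genes in the deposited FPKM, which are scaled by gene length. In normoxic retina Lyve1 was highest at 6.91 ± 1.00 FPKM (SD, n = 6), followed by Lyz2 at 3.40 ± 0.806 and Adgre1 at 0.280 ± 0.120. The ranges of these 3 genes did not overlap. Ms4a7 (0.0680 ± 0.0541 FPKM), F13a1 (0.0200 ± 0.0124), Mrc1 (0.00844 ± 0.00746) and Cd163 (0) followed, and from Adgre1 down each gene's range overlapped that of its neighbour. In OIR retina the order became Lyz2 (18.8 ± 5.39 FPKM), Lyve1 (5.35 ± 0.577), Adgre1 (1.18 ± 0.241), Mrc1 (0.528 ± 0.157), F13a1 (0.224 ± 0.0844), Ms4a7 (0.157 ± 0.0820) and Cd163 (0.103 ± 0.0534). The ranges of the first 4 did not overlap, and from Mrc1 down neighbours overlapped. Lyve1 stayed above the other scavenger receptor genes in OIR, at 4.39 to 6.02 FPKM against 0.338 to 0.817 for Mrc1.

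Microglial RNA also rose in OIR, so the 7 genes were set against it. The 11 homeostatic microglia genes summed to 44.0 to 56.9 CPM in normoxic and 81.8 to 99.7 CPM in OIR libraries. Of 10 tested, 7 rose and none fell (median log2 fold change 0.78). The fractalkine receptor gene Cx3cr1 rose 2.24-fold and Olfml3 1.52-fold (edgeR adjusted p = 5.4e-07 and 2.0e-04), whereas P2ry12 and Tmem119, receptor and membrane protein genes of resting microglia, had log2 fold changes of 0.38 and 0.17 and did not pass (adjusted p = 0.10 and 0.55).

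Each gene was then counted per 1000 counts of these microglia genes and tested with the same sums as library sizes. On this scale Mrc1 went from 1.11 ± 1.05 to 38.7 ± 12.8 (SD, n = 6 each), a ratio of summed counts of 34.8 (95% counting interval 15.8 to 95.4; edgeR adjusted p = 7.1e-10). F13a1 went from 2.66 ± 1.5 to 17.3 ± 7.10, a ratio of 6.23 (3.67 to 11.4; edgeR adjusted p = 7.1e-06). Lyz2 went from 89.7 ± 13.6 to 283 ± 86.8, a 3.15-fold rise (edgeR adjusted p = 1.1e-08), and Adgre1 from 18.1 ± 7.39 to 43.7 ± 6.91, a 2.39-fold rise (edgeR adjusted p = 7.4e-05). Of all tested genes, 3.28% were called higher on this scale and 1.64% had higher, non-overlapping groups. These shares support nothing for Mrc1 and F13a1, which entered the test through the OIR group alone.

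Cd163 was at least 11.8-fold higher per microglial count, against the floor of 3 counts over the normoxic group, with an exact 95% lower limit of 9.28. Ms4a7 had 6.30 ± 5.36 in normoxic and 8.08 ± 4.49 in OIR per 1000 microglial counts, and its ratio of 1.28 (95% counting interval 0.848 to 1.98) included no difference. Lyve1 fell from 412 ± 75.9 to 178 ± 13.3 per 1000 microglial counts, by 1.20 ± 0.12 (SE) on the log2 scale (edgeR adjusted p = 3.3e-09), and its groups did not overlap (286 to 508 against 157 to 195). Since microglial genes themselves rose, 85.7% of all tested genes were called lower on this scale and 67.7% had lower, non-overlapping groups, with a median log2 fold change of -0.84, so Lyve1 shares a lower value with most genes.

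**Figure D2:**
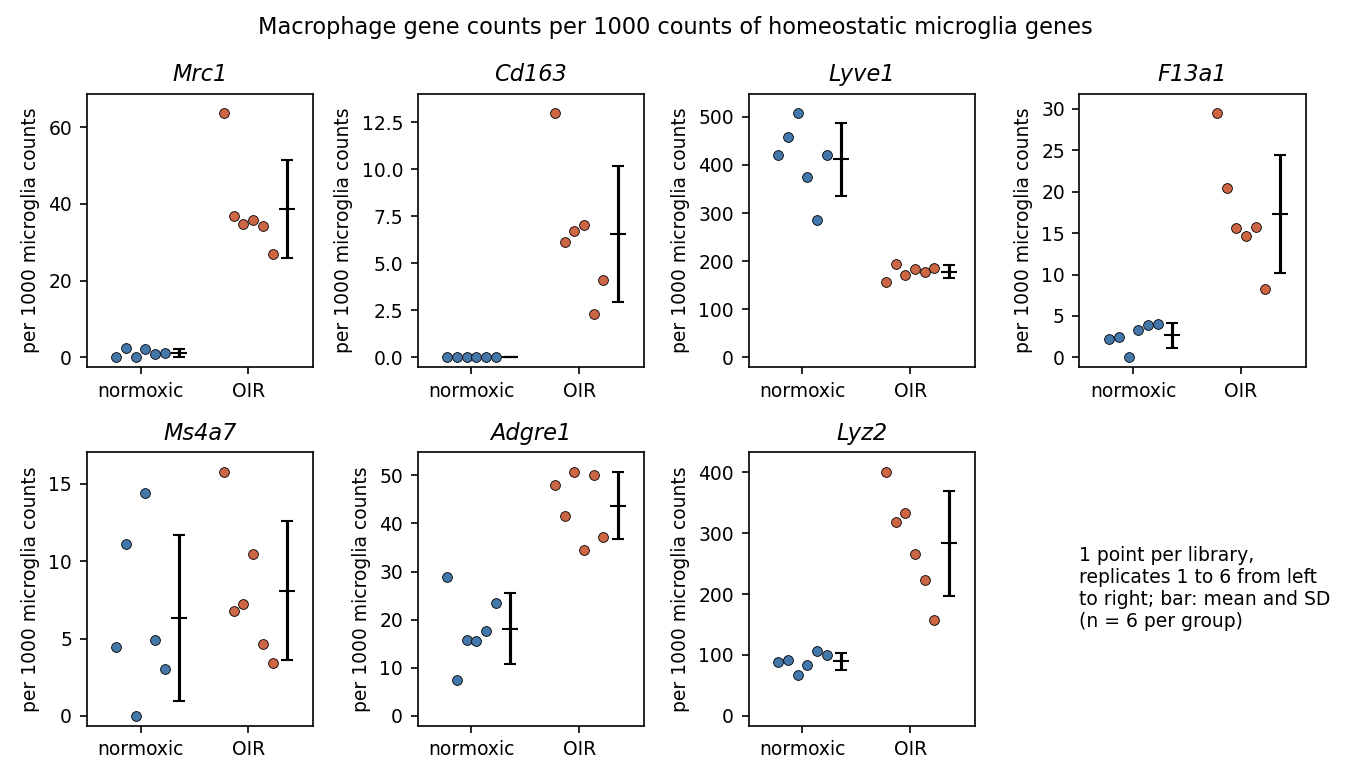
Counts of each macrophage gene per 1000 counts of 11 homeostatic microglia genes (vertical axis, a separate linear scale per gene) in each library, with mean and SD. Mrc1, Cd163, F13a1, Adgre1 and Lyz2 remain higher in all 6 OIR libraries, Lyve1 is lower in all 6, and Ms4a7 overlaps.

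**Figure D3:**
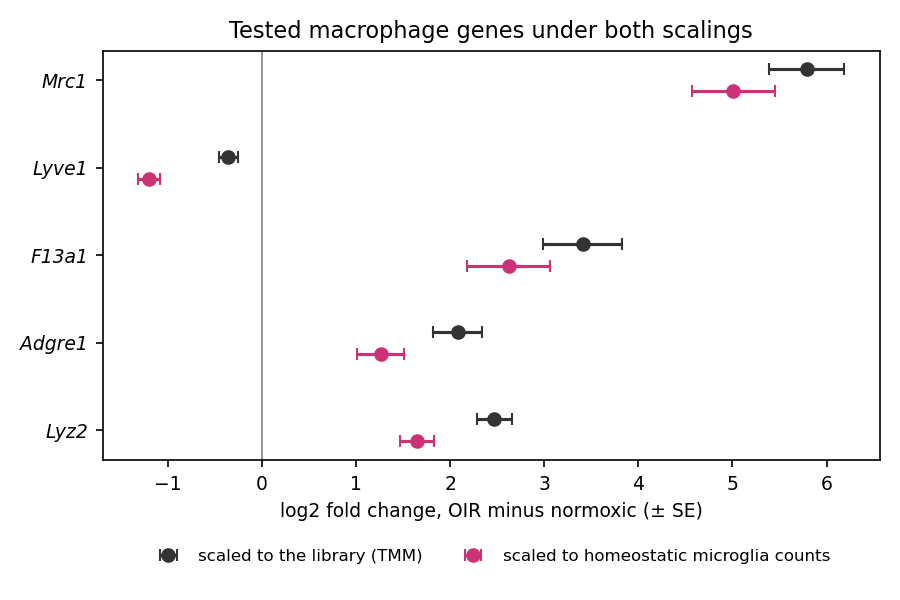
Log2 fold change (OIR minus normoxic, horizontal axis, bars ± SE) of the 5 tested genes, scaled to the library (dark) and to the microglia genes (magenta). Mrc1 goes from 5.79 to 5.01, F13a1 from 3.41 to 2.62, Lyz2 from 2.47 to 1.65, Adgre1 from 2.08 to 1.26 and Lyve1 from -0.36 to -1.20.

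Other genes of border-associated macrophages were examined as a list of 18, of which 6 were tested. Stab1, a scavenger receptor gene, rose 3.33-fold and the endocytic adaptor gene Dab2 2.99-fold (edgeR adjusted p = 6.4e-09 and 2.0e-06), though endothelium expresses both. Pf4, the chemokine gene of platelets and border-associated macrophages, had 8 counts in normoxic and 120 in OIR libraries, which is a 15-fold ratio (interval 7.35 to 35.4; edgeR adjusted p = 2.1e-05). Ms4a6b rose 6.00-fold (edgeR adjusted p = 4.5e-05). The transcription factor gene Maf did not pass (log2 fold change 0.09, adjusted p = 0.48), and 4 of 6 tested genes rose in all, with none lower, against 16.2% called higher among all tested genes. Pf4 and Ms4a6b reached 10 counts in OIR libraries only, so this count is no support for the list. The same limit holds for Ms4a6d, C5ar1, Ccl2, Ccl12 and Clec9a among the genes called higher in the other lists and relatives. Plac8 reached 10 counts in 6 OIR libraries and 1 normoxic library, and Msr1 in 5 and 1. Both thus passed the filter mainly through the OIR group, which limits the counts of their lists in the same way.

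The 12 untested genes of that list were sparse and mixed. Ms4a6c, Ccl8, Ccl24, Cd209f and Timd4 had 0 normoxic counts and 33, 13, 5, 7 and 3 in OIR. Siglec1, a sialic acid receptor gene of macrophages, had 15 and 85 counts, and the lectin receptor gene Clec4n had 6 and 80. Folr2, a folate receptor gene that is among the usual perivascular markers, had 44 counts in normoxic and 27 in OIR libraries (ratio 0.612, interval 0.364 to 1.01). Fcna, a ficolin gene, had 15 and 9.

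Genes of blood monocytes were mostly near the detection limit. Of 10, 4 were tested and 2 rose, against 16.2% called higher among all tested genes. Plac8 rose 5.30-fold (edgeR adjusted p = 5.7e-04) and Itga4 2.66-fold (adjusted p = 3.0e-06). Itgal and Treml4 did not pass (log2 fold changes of 0.53 and 0.41, edgeR adjusted p = 0.13 and 0.40). Chil3, which was not tested, had 54 normoxic and 55 OIR counts. Itga4, an integrin gene, was at 51.8 to 96.9 CPM in normoxic and 131 to 236 CPM in OIR libraries, and other cells also make it. Ccr2, the receptor through which monocytes follow Ccl2, had 7 counts in normoxic and 68 in OIR libraries (ratio 9.69, interval 4.45 to 25). Ly6c2 had 10 and 36 (ratio 3.59, interval 1.74 to 8.11), but its groups overlapped, and 1 normoxic library held 9 of the 10. In the fit without the expression filter the edgeR adjusted p was 3.1e-04 for Ccr2 and 0.18 for Ly6c2. The chemokine gene Ccl2 itself rose from 2 to 207 counts (edgeR adjusted p = 1.2e-07), Ccl12 from 13 to 103 (adjusted p = 7.0e-05), and the macrophage growth factor gene Csf1 rose 2.28-fold (adjusted p = 3.3e-06). Cx3cl1, the neuronal fractalkine gene, fell by 0.45 on the log2 scale (adjusted p = 7.8e-04). Ccl7, which encodes another ligand of Ccr2, had 0 normoxic and 55 OIR counts.

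Genes that microglia, macrophages and monocytes share rose in 12 of 13, with a median log2 fold change of 1.46 over the tested genes against -0.01 over all genes tested. Laptm5, Csf1r, Cd68 and Tyrobp rose 2.80-fold, 1.95-fold, 2.77-fold and 2.93-fold. Of 7 tested genes of alternative activation, 4 rose (median log2 fold change 0.49), among them the transglutaminase gene Tgm2 at 8.10-fold and the matrix protein gene Tgfbi at 6.49-fold (edgeR adjusted p = 2.0e-08 and 5.0e-07). The scavenger receptor gene Msr1 rose 6.41-fold (edgeR adjusted p = 6.5e-04). Arg1 and Mgl2 did not pass (log2 fold changes of 0.46 and -0.48; adjusted p = 0.19 and 0.33), and Retnla had 0 counts in all 12 libraries. Mrc2, the collagen-binding relative of Mrc1, rose 5.86-fold (edgeR adjusted p = 1.5e-09), and fibroblasts and pericytes also make it.

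**Figure D4:**
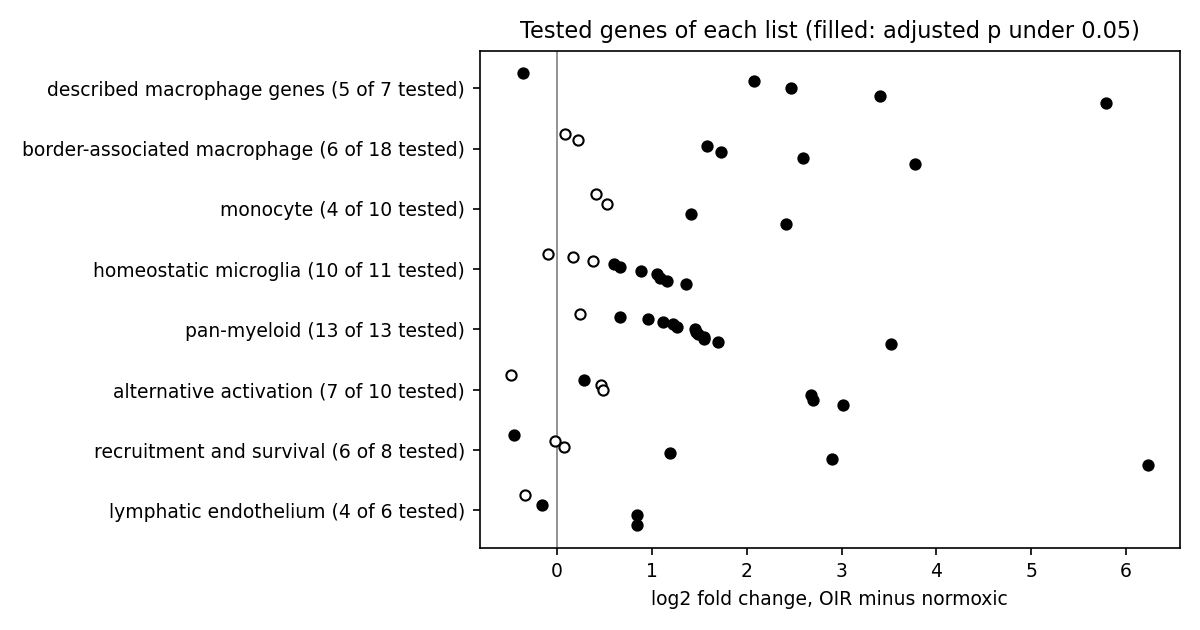
Log2 fold change (OIR minus normoxic, horizontal axis) of every tested gene in 8 lists, 1 point per gene, filled where the edgeR adjusted p is under 0.05. The 5 tested macrophage genes spread from -0.36 (Lyve1) to 5.79 (Mrc1), while the tested homeostatic microglia genes lie between -0.09 (Siglech) and 1.36 (Fcrls).

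Other blood cells moved with the macrophage genes to different extents, and their part in the results was not tested. Red blood cell genes summed to 55.4 to 133 CPM in normoxic and 114 to 235 CPM in OIR libraries, and 4 of 4 tested rose, among them Hbb-bs 2.17-fold (edgeR adjusted p = 4.2e-04). Within the normoxic group, replicates 1 to 3 held 99.2 to 133 CPM of red cell RNA and replicates 4 to 6 held 55.4 to 58.0 CPM. Lyz2 had 209 counts in the former and 284 in the latter, Mrc1 2 and 4, and F13a1 4 and 11. Within the OIR group, replicates 1 to 3 held 177 to 235 CPM of red cell RNA and replicates 4 to 6 held 114 to 175 CPM, with 1697 and 1065 counts of Lyz2, 214 and 159 of Mrc1, and 103 and 64 of F13a1. Replicates 1 to 3 thus held fewer counts of these 3 genes in the normoxic group and more in the OIR group, with more red cell RNA in both. In OIR, replicate 6 had the least red cell RNA (114 CPM) and the lowest Lyz2, Mrc1, F13a1, Adgre1 and Ms4a7 levels.

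Neutrophils also make Lyz2, and their genes summed to 0.272 to 0.857 CPM in normoxic and 0.696 to 3.15 CPM in OIR libraries. None of 11 passed the expression filter. The calprotectin genes S100a8 and S100a9 had the most OIR counts of the list: S100a8 had 9 counts in normoxic and 39 in OIR libraries (ratio 4.32, interval 2.06 to 10.1), and S100a9 had 16 and 55 (ratio 3.43, interval 1.94 to 6.41). Their groups overlapped, and in the fit without the expression filter the edgeR adjusted p was 0.065 for S100a8 and 0.049 for S100a9. Mpo had 0 counts in all libraries, and Ly6g had 0 normoxic and 6 OIR counts. OIR replicate 1, highest in Lyz2 at 32.8 CPM, held 0.953 CPM of neutrophil RNA, and replicate 2, highest in neutrophil RNA at 3.15 CPM, held 26.8 CPM of Lyz2. Platelet genes, relevant to F13a1 and Pf4, summed to 6.38 to 8.62 CPM in normoxic and 5.83 to 8.93 CPM in OIR libraries, with 0 of 2 tested genes called and Gp1bb and Tubb1 at 0 counts. Most of that sum came from the 2 tested genes, Itga2b (594 normoxic and 496 OIR counts) and Gp1ba (230 and 266), so it says little about the others. Ppbp had 1 and 18 counts (ratio 17.9, interval 2.83 to 748). Its groups overlapped, and in the fit without the expression filter its edgeR adjusted p was 0.026. Treml1 had 1 and 10 counts, and Gp9 had 14 and 22.

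Lymphocyte genes summed to 3.59 to 5.55 CPM in normoxic and 5.55 to 6.62 CPM in OIR libraries, and neither of 2 tested genes passed (Cd8a, log2 fold change 0.30, edgeR adjusted p = 0.36). Cd3d and Cd3e had 0 normoxic and 8 and 6 OIR counts. Of 7 dendritic cell genes, Clec9a rose 4.04-fold (edgeR adjusted p = 2.4e-04), Flt3 fell by 0.58 on the log2 scale (adjusted p = 0.021) and Zbtb46 did not pass, while the integrin gene Itgax, shared with activated microglia, had 11 and 138 counts. Mast cell genes had 5 normoxic and 9 OIR counts in all.

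Movement among libraries of a group was described for Mrc1, Lyve1, Adgre1 and Lyz2, and their correlations ranged from -0.51 to 0.54. Cd163, F13a1 and Ms4a7 had a mean under 20 counts per library and were left out. After each group's mean was removed, log2 CPM of Mrc1 and Lyz2 correlated with r = 0.54 over the 12 libraries, Adgre1 and Lyz2 with 0.37, Mrc1 and Adgre1 with -0.30, and Mrc1 and Lyve1 with -0.51. These are descriptions over libraries that share their preparation, for genes with few counts. OIR replicate 1 had the highest level of Mrc1, Cd163, F13a1, Ms4a7 and Lyz2 and the lowest of Lyve1 (12.8 CPM), while Adgre1 was highest in OIR replicate 5.

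Over 13682 candidate genes, those closest to each member by the same within-group correlation were named by rule. For Mrc1 they were Cd68, a lysosomal macrophage gene, Cand1 and Sqor (r = 0.87, 0.87 and 0.86). For Lyz2 they included Pxdn and Fras1 (r = 0.92 and 0.91). For Adgre1 they were Lrrc29, the leukocyte kinase gene Syk and Aplf (r = 0.88, 0.88 and 0.87). For Lyve1 they were B3gat1, Arhgap25 and Fam189a2 (r = 0.90, 0.90 and 0.89). These are by construction among the 3 highest values of the search for each member. Of the 3 genes nearest Lyve1, B3gat1 and Fam189a2 fell with it in OIR (log2 fold changes of -0.43 and -0.35), and Arhgap25, a leukocyte gene, rose (2.15).

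Within replicate numbers 1 to 3 and within 4 to 6, the log2 fold changes were 6.45 and 5.24 for Mrc1, 4.52 and 2.55 for F13a1, 2.96 and 1.95 for Lyz2, and 2.27 and 1.91 for Adgre1, and each passed the test in both sets. The sets also differed in adjacent tissue: pigment epithelium and choroid genes summed to 15.9 to 17 CPM in normoxic replicates 1 to 3 and 99.1 to 114 CPM in replicates 4 to 6, against 45.4 to 49.5 and 58.5 to 71.2 CPM in OIR, and their part in these values was not tested. In OIR, Cd163 had 41 counts in numbers 1 to 3 and 22 in numbers 4 to 6. The sets differed more in Mrc1, F13a1 and Lyz2 than in Adgre1 by these log2 fold changes, a difference that was not tested.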

How the data were processed

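RNA was measured in 12 retina libraries, grouped and numbered by the sample titles. Per the submitters' processing notes, Trimmomatic, HISAT2 version 2.0.5, HTSeq and build GRCm39 were used. None of the sources used here gives their order, the annotation or the strand setting. The deposited table holds whole-number counts per gene and FPKM, per the file headers. FPKM used gene lengths below the length column for 6 of the 7 genes.

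The main test was edgeR's quasi-likelihood test on the counts (version 4.0.16, under R 4.3.3) after filterByExpr (minimum count 10, total 15), with TMM scaling and Benjamini-Hochberg adjustment over all tested genes, with a threshold of 0.05. CPM use TMM-scaled library sizes. Members under the filter or with at most 20 counts in a group are given as a ratio of summed counts with an exact 95% interval. Where the normoxic group had 0 counts, a lower limit is given instead. Some sparse list genes are given in the same way, and others by their counts alone. A second fit set library sizes to the summed counts of 11 homeostatic microglia genes (813 to 1025 in normoxic, 1450 to 1929 in OIR libraries). Named genes were the 7 members, up to 4 genes per list with the smallest adjusted p (or, where none passed, the tested gene with most counts), relatives of the members, and the 3 genes most correlated within groups (mean of at least 20 counts, prior count 2). Further genes were named after their values were seen, and some genes that the rule names are not reported here. Members and lists were chosen with earlier results of these data known. No 2 libraries of a group agreed within sampling noise (chi-square divided by its degrees of freedom, 3.06 to 15.6). Normoxic pairs within numbers 1 to 3 or within 4 to 6 gave 3.06 to 4.11, and pairs across these sets gave 12.2 to 15.6. In OIR the corresponding values overlapped, at 3.99 to 8.14 and 4.81 to 12.4. The normoxic libraries thus formed 2 sets, for which the main fit held no term. Alternatives included DESeq2 version 1.42.0 and limma version 3.58.1.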

Additional observations from a re-analysis of the deposited data

Results flagged for a closer look

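Single libraries stood apart from the other 5 of their group, by the gap-to-range criterion of Dixon at 95%, in 7 of 80 groups examined over the 7 macrophage genes and the named genes of the cell and ligand lists. Chance gives about 1 in 20 for normally distributed values, which the CPM of sparse genes are not, so the chance rate here is unknown. None of the 7 concerned the macrophage genes themselves. Plac8 was highest in normoxic replicate 3 (0.799 CPM) and in OIR replicate 1 (1.74 CPM). Laptm5 was lowest in OIR replicate 6 (16.1 CPM), the library with the lowest Lyz2 and Mrc1 levels. Msr1 was highest in normoxic replicate 1 (0.696 CPM). Ccl2 had its 2 normoxic counts in replicate 3 (0.114 CPM). Cx3cl1 was highest in OIR replicate 6 (95.1 CPM) and Prox1 in OIR replicate 2 (150 CPM).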

How the results depend on the processing

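Calls of Mrc1, F13a1, Adgre1 and Lyz2 kept their direction and side of the threshold under every alternative that tested them. The highest adjusted p-values were 5.9e-06, 0.0027, 5.0e-04 and 7.3e-06 when scaled to the library. Relative to microglial genes, the highest edgeR adjusted p-values were 8.5e-09, 0.0068, 0.0034 and 1.7e-07. When scaled to the library, Lyve1 lost its call in replicate numbers 4 to 6 (log2 fold change -0.18, adjusted p = 0.39). Requiring a mean FPKM of at least 1 left out Mrc1 and F13a1 and so gave 3 called members in place of 5. The count of all genes past the threshold was 5673, 3671 in numbers 4 to 6 and 7226 in numbers 1 to 3, both with fewer libraries. The Cd163 bound was 13.1 and 7.62 in numbers 1 to 3 and 4 to 6, and 7.14 and 4.37 per microglial count, since the same floor of 3 counts stands against fewer OIR counts. The Ms4a7 ratio per microglial count reversed to 0.881 in numbers 4 to 6 from 1.28; the cause was not tested. On log2(FPKM + 1) the change of Mrc1 was 0.59 and of F13a1 0.26, as the pseudocount exceeds their levels.

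Leaving out each library gave 5072 to 5869 genes past the threshold, 5 to 6 called members, log2 fold changes of 5.55 to 6.07 (Mrc1), -0.41 to -0.30 (Lyve1), 3.17 to 3.60 (F13a1), 1.91 to 2.24 (Adgre1) and 2.37 to 2.60 (Lyz2), and ratios of 17.3 to 23.2 (Cd163) and 1.92 to 3.05 (Ms4a7). With the replicate number as a block (replicate block), 5675 genes passed and the 5 log2 fold changes were 5.78, -0.36, 3.39, 2.11 and 2.43, in the order Mrc1, Lyve1, F13a1, Adgre1 and Lyz2; relative to microglial genes they were 4.99, -1.19, 2.58, 1.30 and 1.6. Same-numbered libraries deviated together only weakly (correlations of -0.02 to 0.12), and 2 of 6 normoxic libraries correlated best with their own number. The labels used here do not say whether same-numbered libraries were paired, and these values cannot exclude it. With numbers 1 to 3 against 4 to 6 as a block, 6429 genes passed. The log2 fold changes were then 5.78 (Mrc1), -0.36 (Lyve1), 3.39 (F13a1), 2.08 (Adgre1) and 2.45 (Lyz2). Scaling to the pan-myeloid list gave 4.76 (Mrc1), -1.44 (Lyve1), 2.34 (F13a1), 1.00 (Adgre1) and 1.37 (Lyz2).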
